A study of Mus musculus with 6 samples.

Results

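The cytosolic ribosomal protein genes encode the protein parts of the ribosomes that make nearly all proteins of the cell. They were taken by symbol from a table of normalised read counts (Rpl or Rps followed by a number, or Rplp0, Rplp1, Rplp2 and Rpsa). Of 260 rows that matched, 82 genes of the 26181 in the table were kept, with 49 large subunit genes, 32 small subunit genes and Rps19bp1, which matched by its letters but encodes a binding partner of a ribosomal protein and is counted in neither subunit. Left out were 159 symbols marked as processed copies by -ps, 6 other pseudogenes, 10 kinases of the Rps6k family, 2 genes that are not analysed here and 1 gene with a mean under 10 normalised counts. That gene was Rpl3l, the muscle form of Rpl3, with a mean of 1.32, while the kept genes nearest to the limit were Rpl39l at 10.5 and Rpl36al at 42.8.

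The libraries came from CD8+ T cells, the cytotoxic arm of the T cells, isolated from the spleens of C57BL/6 mice of wild-type genotype. From 6 weeks of age, and for 7 weeks, the mice ate a diet labelled ND or CDAHFD, a high-fat diet without choline in which amino acids replace protein, used as a model of steatohepatitis with liver fibrosis. Each diet had 3 libraries with 25314988 to 28067393 reads assigned to genes. How the cells were sorted, and how pure they were, is not given in the sources used here. Separate animals for the libraries of a diet are stated in no label, and the p-values therefore rest on a spread between libraries that may be only technical.

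A ribosome is built in the nucleolus from ribosomal RNA and from proteins that are imported from the cytoplasm, and cells need the proteins in matched amounts, since those left over are degraded. The mRNAs of ribosomal proteins in mammals begin with a cytosine and a run of pyrimidines, the 5′ terminal oligopyrimidine tract, through which mTORC1 and the RNA-binding protein LARP1 control their translation. Lymphocytes enlarge this machinery when they are activated and start to divide, and resting T cells hold it at a low level.

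Levels of ribosomal protein mRNAs were lower on CDAHFD across most of the family, each by a small amount. With limma at an adjusted p under 0.05, 55 of 82 members fell (67.1%) and 0 rose, against 22.5% of all 15819 tested genes that fell and 24.6% that rose. Without adjustment, 61 of 82 members had a limma p under 0.05, as had 8338 of the 15819 tested genes in either direction. Both edgeR and DESeq2 also called 0 members higher. By edgeR 60 members were lower, against 22.8% of all tested genes (24.5% higher), and by DESeq2 57, against 19.6% (23.1% higher). The median log2 fold change of the members was -0.20, against -0.01 over all tested genes, and 77 of 82 members had a negative value. All but 1 of the called members changed by less than 1.5-fold, and the falls ranged from 7.00% to 37.0%.

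The values in the 3 CDAHFD libraries all lay below the 3 ND values for 60 members and above them for 0, against 26.5% and 27.8% of all tested genes. The members took 7.97%, 8.44% and 8.10% of all reads in the 3 ND libraries and 7.16%, 6.88% and 6.87% in the 3 CDAHFD libraries. The means were 8.17% ± 0.244 and 6.97% ± 0.169 (SD, n = 3 per diet), and the diets did not overlap. In bulk RNA, fewer cells of a type and less RNA of these genes per cell cannot be told apart.

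Both subunits took part. Of the large subunit genes 36 of 49 fell, with a median log2 fold change of -0.23, and of the small subunit genes 19 of 32 fell, with a median of -0.19. All 5 members with a positive value belong to the large subunit, and none of them was called. The ratio of summed large to summed small subunit counts was 1.292, 1.290 and 1.284 in ND libraries and 1.242, 1.256 and 1.261 in CDAHFD libraries, so that the large subunit held a slightly smaller part on CDAHFD, with means of 1.289 ± 0.00447 and 1.253 ± 0.0102. The difference of -0.0355 is a description of the sums over the members, and no test was made of it.

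**Figure D1:**
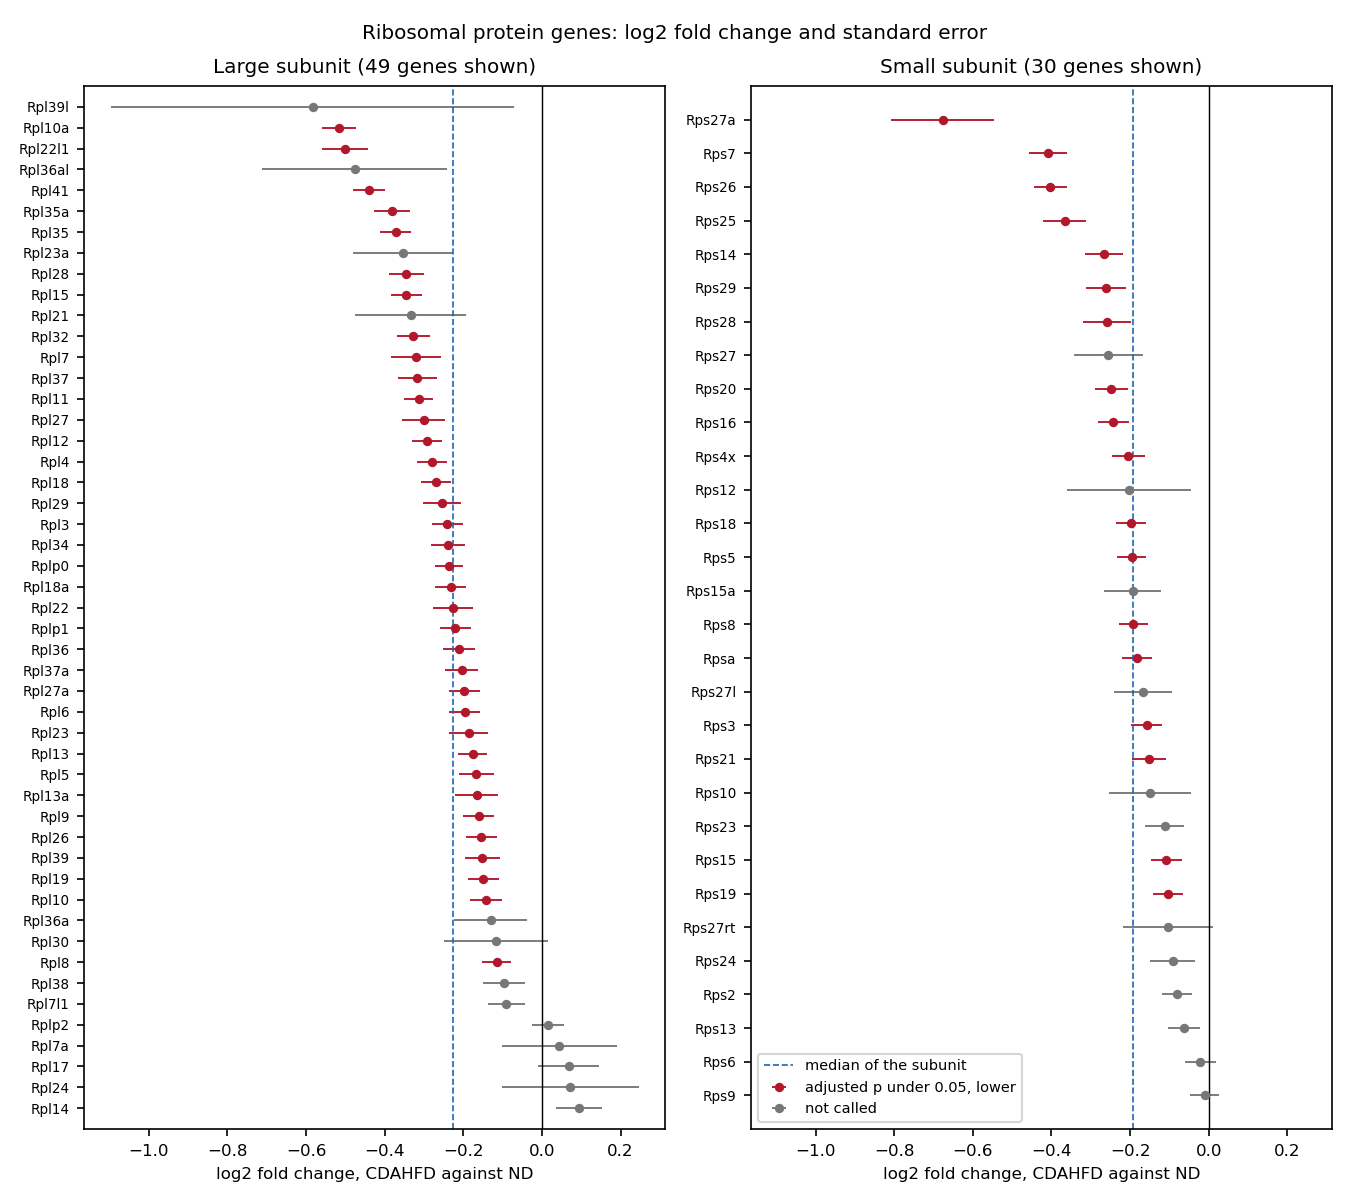
Log2 fold change (CDAHFD against ND, x axis) with its standard error for the 49 large subunit genes (left) and 30 of the 32 small subunit genes (right), sorted, with called genes in red, the others in grey and the median over all genes of each subunit as a dashed line. Most genes lie between -0.4 and -0.1, and the 5 values above 0 are all in the left panel.

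**Figure D2:**
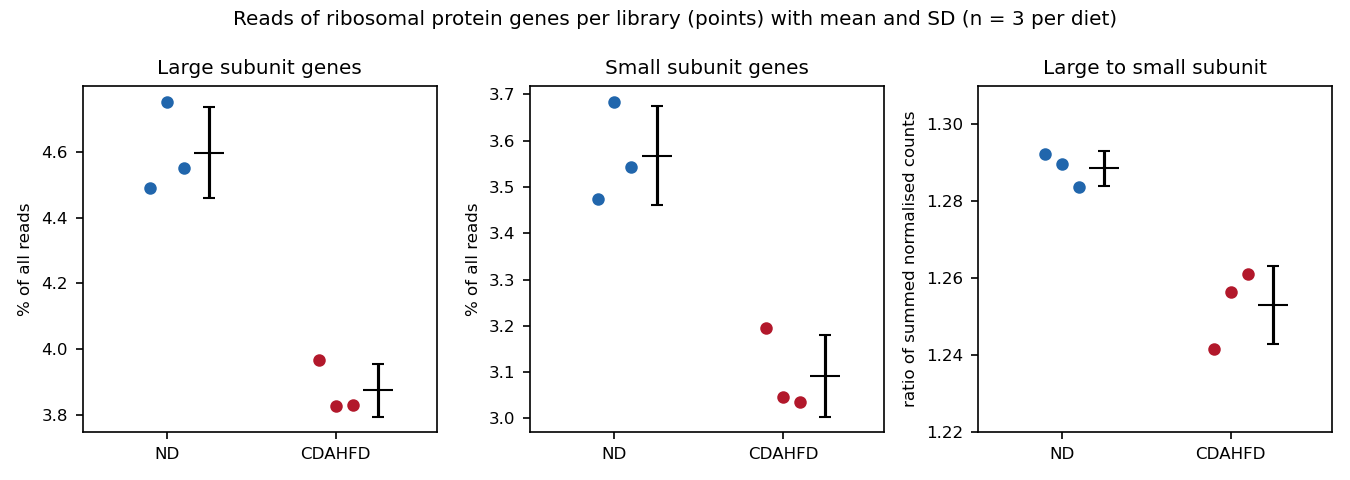
Percent of all reads that fell on large subunit genes (left) and small subunit genes (middle), and the ratio of the summed counts (right), for each of the 6 libraries as a point, with the mean and SD of each diet beside it; the y axes do not start at 0. Both shares and the ratio are lower in all 3 CDAHFD libraries.

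The libraries of a diet also differed among themselves. ND library 2 had the highest value of its diet in 58 of 82 members, and CDAHFD library 1 in 61 of 82. The median log2 difference of the members from the ND mean was -0.15 in CDAHFD library 1, -0.22 in library 2 and -0.23 in library 3. Without CDAHFD library 1, 66 members fell, and for the small subunit the count went from 19 to 28 of 32. Without ND library 2, 51 members fell. Over the fits with 1 library left out, 2983 to 3697 of all tested genes fell, against 3563 with all 6 libraries. The number of calls thus shifted across the whole table too, but upward at most from 3563 to 3697, while the members went from 55 to 66. The whole-table count of each single fit is not given here.

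The preparations differed in more than these genes. Of 8 CD8 T cell markers 7 fell, with a median log2 fold change of -0.41 and summed levels of 118215 to 121994 normalised counts on ND and 92311 to 96941 on CDAHFD. Beside the CD8 chains, this list holds CD3 and T cell receptor chains, which are not confined to CD8 T cells. All 11 macrophage markers rose, with a median of 3.02 and sums of 15218 to 16535 and 138074 to 153035. All 7 erythroid markers rose (sums of 870.5 to 906 and 8901 to 9203), as did 4 of 5 plasma cell markers (3712 to 3822 and 36886 to 38211) and 6 of 6 neutrophil markers (2481 to 2507 and 6372 to 7352). All 6 B cell markers fell, from 18809.6 to 19423 down to 13932 to 14651, and 5 of 6 dendritic cell markers fell, from 8275 to 8768 down to 6249.7 to 6941. Of the remaining lists, 1 of 3 CD4 T cell markers rose and 1 fell, 2 of 4 NK cell markers rose and 2 of 4 tested endothelial and platelet markers rose. No tested marker of these lists was at 0 in any library. Their part in the lower ribosomal protein levels was not tested.

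High abundance and short mRNAs set the members apart from most genes. Among 345 tested non-members whose mean reached 10000 normalised counts, 145 fell (42.0%) and 84 rose, with a median log2 fold change of -0.05, and among the 64 members at that level 49 fell and 0 rose, with a median of -0.20. Among 695 protein-coding non-members with a principal transcript under 1000 bases, 224 fell and 115 rose, with a median of -0.11. The median was -0.05 from 1000 to 2000 bases, 0.00 (a negative value that rounds to 0) from 2000 to 4000 bases and 0.03 beyond, so shorter transcripts tended to lower values across the table. Within the members, neither transcript length nor level per kb went along with the log2 fold change over the 76 members whose mean reached 1000 (Spearman 0.04 and 0.01, across genes that share the same 6 libraries). Both values rest on principal transcripts, the longest where several ranked equally, such as 5179 bases for Rps15a and 3706 for Rps20. Whether those forms were the ones present in these cells was not tested.

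The stalk is a flexible arm of the large subunit that recruits the elongation factors, and 3 of its 4 members fell. Rplp1, one of its tip proteins, had 96591 reads per kb of its principal transcript on ND and 82819 on CDAHFD, the highest level of the large subunit. Rplp0, the base of the stalk on chromosome 5, had 88943, 93156 and 92574 normalised counts on ND and 78447, 77655 and 77016 on CDAHFD. All of its CDAHFD values lay below the ND values, and it fell by 15.1% (log2 fold change -0.24, SE 0.04, limma adjusted p = 2.94e-06). Rplp1 fell by 14.3% and Rpl12, which sits at the foot of the stalk, fell by 18.4%.

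Rplp2, the partner that pairs with Rplp1 at the tip, was not called. It had 17466, 15905 and 16066 normalised counts on ND and 17042, 16835 and 16064 on CDAHFD, which overlap (log2 fold change 0.02, SE 0.04, limma adjusted p = 0.79). Per 100 Rplp1 counts there were 34.3 ± 3.66 Rplp2 counts on ND and 40.3 ± 1.17 on CDAHFD (SD, n = 3 per diet). The values did not overlap, with a highest ND value of 38.4 and a lowest CDAHFD value of 39.0, and an exact permutation test of 3 against 3 cannot give a p below 0.1. This pair was chosen after its values were seen, as were the groups by role in the ribosome. Counts in these small groups are to be read against the 67.1% of all members and the 22.5% of all tested genes that fell.

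Rpl5 and Rpl11, which bind 5S ribosomal RNA and, when free of ribosomes, inhibit the p53 ubiquitin ligase Mdm2, both fell. Rpl11 had 26873, 27911 and 27557 normalised counts on ND and 22533, 22128 and 21618 on CDAHFD (log2 fold change -0.31, SE 0.04, limma adjusted p = 3.91e-08). Its diets stood well apart. Rpl5 was nearer to the threshold (log2 fold change -0.17, SE 0.04, limma adjusted p = 0.00315), and its highest CDAHFD value of 52083 lay close to its lowest ND value of 52278.

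Near the peptidyl transferase centre, where peptide bonds are formed, Rpl3, Rpl8 and Rpl10 all fell, with percent changes of -15.3%, -7.66% and -9.38%. Of 7 proteins of the exit tunnel and its mouth, through which the new chain leaves, 5 fell. Rpl4, which reaches into the tunnel, fell from 80338 ± 2336 to 66231 ± 2586 normalised counts, and Rpl35, at the mouth of the tunnel, had 15471, 17048 and 15761 counts on ND and 12396, 12532 and 12347 on CDAHFD (log2 fold change -0.37, SE 0.04, limma adjusted p = 7.52e-09). The CDAHFD values of Rpl35 lay close together and below all ND values. Rpl23a, beside it at the tunnel mouth, had a similar log2 fold change of -0.35 but a larger error (SE 0.13, limma adjusted p = 0.0857).

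Rpl17, another tunnel protein, had 16436, 15603 and 15731 normalised counts on ND and 18069, 17613 and 14597 on CDAHFD. The values overlapped (log2 fold change 0.07, SE 0.08, limma adjusted p = 0.518). Rows of 7 processed copies named after Rpl17 held more reads than the gene itself, with a summed mean of 19682 on ND and 17477 on CDAHFD, and with the copies added the log2 fold change was -0.06. Without CDAHFD library 3, Rpl17 was called higher (log2 fold change 0.16, limma adjusted p = 0.00364).

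The largest fall among large subunit genes was that of Rpl10a, a protein of the L1 stalk, through which spent tRNAs leave the ribosome. It had 30646, 33916 and 33244 normalised counts on ND and 24217, 22015 and 22143 on CDAHFD. The lowest ND value was above the highest CDAHFD value, and the mean fell by 30.1% (log2 fold change -0.52, SE 0.04, limma adjusted p = 1.38e-10). Rpl41, which encodes one of the shortest proteins of the cell, had 25409.6, 26207 and 25892 counts on ND and 20101, 19275 and 17837 on CDAHFD, a fall of 26.2% (log2 fold change -0.44, SE 0.04, limma adjusted p = 4.57e-10). The 3 CDAHFD values of Rpl41 were further apart than the ND values, and none reached them. Rpl35a, mutated in some patients with Diamond-Blackfan anaemia, fell by 23.1% and Rpl28 fell by 21.4%.

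At the other end stood Rpl14, with 18834, 17646 and 17957 normalised counts on ND and 21693, 18145 and 18432 on CDAHFD. CDAHFD library 1 alone lay above all ND values (log2 fold change 0.09, SE 0.06, limma adjusted p = 0.209). Without CDAHFD library 2, Rpl14 was called higher (limma adjusted p = 0.0417). Rpl7a had a log2 fold change of 0.04 (SE 0.15) and Rpl24 of 0.07 (SE 0.17). Rpl24 had only 63.3 to 88.1 normalised counts per library, 108 per kb on ND, where Rpl13 had 66885 per kb, and 81.7% of the 50-base stretches of its transcript also occurred in another annotated gene.

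**Figure D3:**
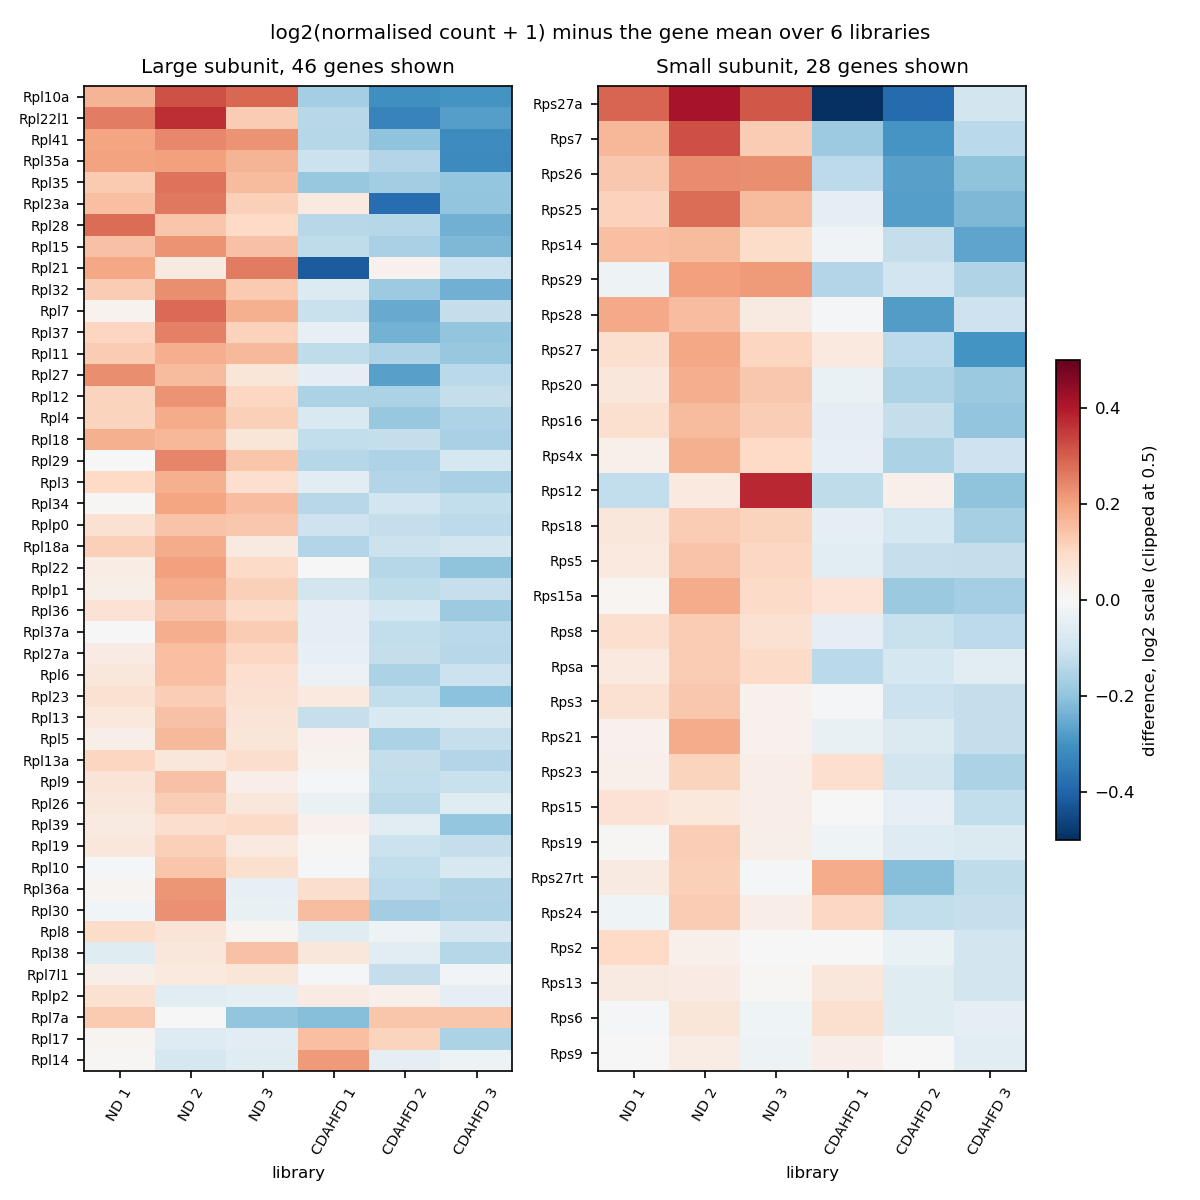
Log2(normalised count + 1) minus the mean of each gene over the 6 libraries (columns), for the 46 large subunit genes (left) and 28 small subunit genes (right) with a mean of at least 1000, sorted by log2 fold change from the lowest at the top. Red is above and blue below the mean of the gene; CDAHFD library 1 is the palest of its diet in many rows, and the rows at the bottom show no split by diet.

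Rps27a had the lowest log2 fold change of all members. The gene (chromosome 11, 29545846 to 29548109 in mm10) encodes a fusion of ubiquitin with a protein of the small subunit head, and is thus also one of the sources of ubiquitin. It had 17743, 19284 and 17973 normalised counts on ND and 9962, 11104 and 13596 on CDAHFD. The CDAHFD values were widely spread but all well below the ND values, and the mean fell by 37.0%, from 18333 ± 831 to 11554 ± 1859 (log2 fold change -0.68, SE 0.13, limma adjusted p = 0.0136). Without CDAHFD library 2 the log2 fold change was -0.65 and the call was lost (limma adjusted p = 0.0552), and 72.0% of its 50-base stretches occur in other annotated genes. Fau, a fusion of a ubiquitin-like protein with a small subunit protein, fell (log2 fold change -0.23, limma adjusted p = 2.51e-05), as did the small subunit scaffold Rack1 (-0.20, limma adjusted p = 3.82e-05).

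Where the mRNA leaves the small subunit, all 4 members fell, against 67.1% of all members. Rps26, a protein at the exit that contacts the mRNA ahead of the start codon, had 19738, 21131 and 21088 normalised counts on ND and 16377, 14876 and 15633 on CDAHFD (log2 fold change -0.40, SE 0.04, limma adjusted p = 2.77e-09). Rps14, Rps28 and Rpsa, the last also known as a receptor for laminin, had log2 fold changes of -0.27, -0.26 and -0.18. At the mRNA entry, of 3 members Rps3 fell by 10.3%, while Rps2 (log2 fold change -0.08) and Rps9 (-0.01) were not called. The difference between the entry and the exit proteins was not tested.

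Of 8 further proteins of the small subunit head, a group that leaves out Rps27a, 7 fell and Rps10 was not called. Rps18, the most abundant head protein per length at 65967 reads per kb on ND and 57559 on CDAHFD, fell by 12.7%. Rps10 had only 253 to 334 normalised counts, while 3 copies named after it summed to 6740.2 on ND and 6334 on CDAHFD. With these copies added it was called lower (log2 fold change -0.09, limma adjusted p = 0.0483).

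Rps7, a small subunit protein that, like Rpl5 and Rpl11, can bind Mdm2, had 43818, 48782 and 42591 normalised counts on ND and 34450.5, 31802 and 35548 on CDAHFD. No value of one diet reached the other, and the mean fell by 24.7% (log2 fold change -0.41, SE 0.05, limma adjusted p = 8.65e-07). Rps25, needed by some viral internal ribosome entry sites, fell by 22.3%.

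Rps6, the substrate of the S6 kinases that is phosphorylated when mTORC1 is active, had one of the flattest patterns. It had 49799, 52282 and 49323 normalised counts on ND and 52884, 48006 and 48398 on CDAHFD. The highest value of all 6 was on CDAHFD, and the log2 fold change was -0.02 (SE 0.04, limma adjusted p = 0.701). Of its 50-base stretches 84.6% occur in another annotated gene, and 3 copies named after Rps6 summed to 4432 on ND and 2527 on CDAHFD. With these added the log2 fold change was -0.07, and Rps6 was again not called (limma adjusted p = 0.154). Rps9, with 40553, 41508 and 39789.5 counts on ND and 41458, 40547 and 38980.4 on CDAHFD, was as flat (log2 fold change -0.01, SE 0.04, limma adjusted p = 0.845). Rps13 had a log2 fold change of -0.06 and was not called either, but without CDAHFD library 1 it was called lower (-0.11, limma adjusted p = 0.0122). The errors of Rps6 and Rps9 were below the median standard error of 0.0432 over all members.

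Paralogues of a ribosomal protein are made from a second gene, often in particular tissues. Rpl22l1 had 2488, 2693 and 2275 normalised counts on ND and 1891, 1652 and 1720.1 on CDAHFD, and fell (log2 fold change -0.50, SE 0.06, limma adjusted p = 3.57e-07). The diets did not overlap. Rpl22, which in mouse T cells is needed for the development of alpha beta T cells and represses Rpl22l1 in mouse cells, fell by 14.5% (log2 fold change -0.23, SE 0.05, limma adjusted p = 0.000891). There were 21.0 ± 1.40 Rpl22l1 counts per 100 Rpl22 counts on ND and 17.3 ± 0.702 on CDAHFD (SD, n = 3 per diet), with no overlap between a lowest ND value of 19.4 and a highest CDAHFD value of 18.0.

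For Rpl7l1, whose protein acts in large subunit assembly, the ratio to Rpl7 went the other way, with 4.80 ± 0.420 per 100 on ND and 5.62 ± 0.0650 on CDAHFD and again no overlap. Rpl7 itself fell (log2 fold change -0.32, SE 0.06, limma adjusted p = 0.00138), and Rpl7l1 was not called (-0.09, limma adjusted p = 0.114). Without CDAHFD library 1 Rpl7 missed the threshold (limma adjusted p = 0.0528). In all, 7 such ratios were computed. The diets overlapped in the other 4, which compare Rps27l and Rps27rt with Rps27, Rpl36al with Rpl36a and Rpl39l with Rpl39. Rplp2 per Rplp1, given above, was among the ratios without overlap. Of all tested genes, 26.5% lay below and 27.8% above without overlap, so its absence is common here. For none of the ratios can the exact permutation test give a p below 0.1.

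Rps27, Rps27l and Rps27rt, a retrogene copy, had log2 fold changes of -0.26, -0.17 and -0.10, and none was called (limma adjusted p = 0.0557, 0.0643 and 0.523). Without CDAHFD library 1 all 3 were called lower, with log2 fold changes of -0.34, -0.23 and -0.22 (limma adjusted p = 3.8e-07, 0.0122 and 2.97e-05). Rps27 and Rps27rt are nearly the same sequence, with 98.6% of the 50-base stretches of Rps27 found in another gene, so that their separate counts are uncertain. Rps27 was called lower by edgeR (adjusted p = 0.00131) and by DESeq2 (adjusted p = 0.0474). The X-linked Rps4x fell by 13.2%. The lowest members were Rpl39l, with 4.23 to 17.4 normalised counts per library, and Rpl36al, with 26.4 to 54.1. Their log2 fold changes of -0.58 and -0.48 had errors of 0.51 and 0.24, and neither was called. Without CDAHFD library 2, Rpl36al was called lower (log2 fold change -0.70, limma adjusted p = 0.0274). Rps19bp1 had 331 to 366 counts on ND and 295 to 330.1 on CDAHFD, with no overlap, and was not called (log2 fold change -0.17, limma adjusted p = 0.113).

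Many members have close copies elsewhere in the genome, and how the authors counted reads that fit several places is not stated in these sources. The median member shared 49.3% of its 50-base stretches with another annotated gene. Among the falls described above, the shares were 95.1% for Rpl35, 93.8% for Rpl5 and 88.1% for Rpl10a, but 43.9% for Rpl41 and 38.3% for Rps26. Of the 76 members with a mean of at least 1000, 9 had a standard error of 0.08 or more, and 8 of those 9 shared over 70% of their stretches, as did 25 of all 76. They include Rps12, Rpl7a, Rpl30 and Rps27a, and the exception was Rpl21 at 26.2%. The principal transcript of Rpl21 had 1856 bases, and its shared stretches occurred in 82 other genes. Rows of 11 copies named after Rpl21 summed to 5259 on ND and 4559 on CDAHFD, beside 8796 and 7019 for the gene. With these copies added, Rpl21 was called lower (log2 fold change -0.28, limma adjusted p = 1.42e-06), while alone it was not (limma adjusted p = 0.128). Over the 76 genes, shared sequence had a Spearman correlation of 0.13 with the standard error and -0.05 with the log2 fold change. The rows dropped as copies or pseudogenes summed to 90421 to 96476 normalised counts on ND and 77103 to 89520 on CDAHFD, so they too were lower on CDAHFD.

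**Figure D4:**
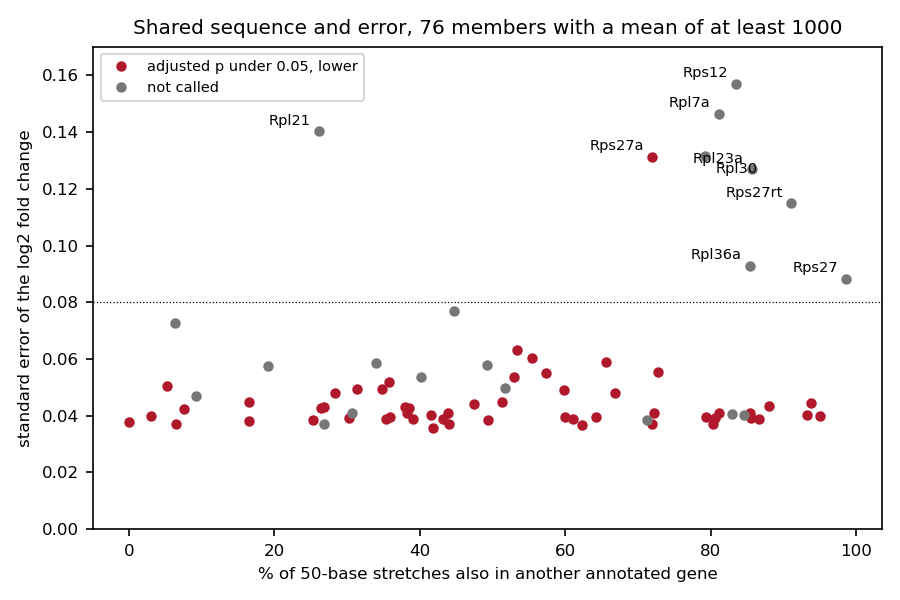
Standard error of the log2 fold change (y axis) against the percent of 50-base stretches of the principal transcript that also occur in another annotated gene (x axis), for the 76 members with a mean of at least 1000, with called members in red. The 9 named genes lie at or above the dotted line at 0.08, and 8 of them lie to the right of 70%.

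The pyrimidine tract the family is known for was found at the annotated start of a minority of the members. RefSeq promoter windows of GRCm38.p6, from 250 bases before to 50 bases after each annotated start, were found for 62 of 82 members (73 windows). A C at the start followed by at least 4 bases of C or T was present in 14 of 73 windows (19.2%), against 2.51% of all 32851 windows. A run of at least 8 C or T within reach of the 10 bases on either side of the start was present in 29 (39.7%), against 13.7%. The sequences below are 30 bases long, with 15 bases before the start and 15 from the start on, and capitals mark the longest run of C and T that touches the 10 bases on either side of it. The first 4 show genes that fell and have the tract at their start, the next 3 genes that were not called and have it too, and the last 3 show genes that fell and lack it in this window.
Rpl35 (chr2:39005117-39005146, minus strand): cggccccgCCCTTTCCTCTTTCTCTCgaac
Rpl35a (chr16:33056467-33056496, plus strand): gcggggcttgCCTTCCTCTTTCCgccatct
Rpl28 (chr7:4792950-4792979, plus strand): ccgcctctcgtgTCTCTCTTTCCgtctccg
Rpl15 (chr14:18270972-18271001, minus strand): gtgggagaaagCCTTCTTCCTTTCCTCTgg
Rpl14 (chr9:120571502-120571531, plus strand): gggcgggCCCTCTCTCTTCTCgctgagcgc
Rplp2 (chr7:141447636-141447665, plus strand): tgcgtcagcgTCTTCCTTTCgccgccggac
Rps6 (chr4:86857353-86857382, minus strand): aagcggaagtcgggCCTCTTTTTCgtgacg
Rpl10a (chr17:28328456-28328485, plus strand): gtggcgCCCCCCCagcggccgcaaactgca
Rpl41 (chr10:128549154-128549183, minus strand): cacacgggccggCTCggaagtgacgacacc
Rps7 (chr12:28635939-28635968, minus strand): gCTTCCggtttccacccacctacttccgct

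Members with the tract were found among those that fell and among those that were not called. Of the 14 members with a C and at least 4 pyrimidines at an annotated start, 6 fell, with a median log2 fold change of -0.17 and a range of -0.38 to 0.09, and of the 48 others with a window 34 fell, with a median of -0.19. Annotated starts can lie some bases away from those used in these cells, so a window without the tract says only that the letters are not at that place. CCGGAA, the core of the site of ETS factors, was present on either strand in 35 of 73 member windows (47.9%) and in 14.9% of all windows. The E-box CACGTG, the same on both strands, was in 8 (11.0%) against 7.15%, and TATAAA on either strand in 7 (9.59%) against 13.6%. The first of these motifs, read on the other strand, can overlap a pyrimidine run. For these motifs and for the tract, the windows compared were not limited to tested genes or to genes at similar levels. The differences in share therefore cannot be read as particular to the members.

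Among other genes that make or use ribosomes, the counts below are to be read against the 22.5% of all tested genes that fell and the 24.6% that rose. Of 66 ribosome assembly factors 31 fell and 0 rose, with a median log2 fold change of -0.14. Utp4, a subunit of the complex that processes small subunit precursors, had 1791, 1770.4 and 1754 normalised counts on ND and 1369, 1417 and 1271 on CDAHFD (log2 fold change -0.39, SE 0.05, limma adjusted p = 2.59e-07). Its values did not overlap. Fcf1, of the same complex, had a log2 fold change of -0.36, the box C/D snoRNP core protein Nop58 of -0.28 and Tcof1, the treacle protein that links ribosomal DNA transcription to RNA processing, of -0.24.

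Of 15 genes of RNA polymerase I and its factors, 4 fell (26.7%, near the share of all tested genes) and 0 rose (median -0.10), led by Taf1b and Polr1e at -0.26 and -0.27. Of 10 tested hosts of small nucleolar RNAs, 5 fell and 0 rose (median -0.17), among them Snhg1, Zfas1 and Gas5, whose spliced transcripts also begin with pyrimidine tracts. Without ND library 2, 3 of these hosts fell. Of 5 tested chaperones of ribosomal proteins 1 fell, Heatr3, with a log2 fold change of -0.15. Heatr3 lost its call without ND library 2 (limma adjusted p = 0.11), ND library 3 (0.0539) or CDAHFD library 2 (0.129).

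Translation factors were mixed. Of 34 initiation factors 18 fell and 3 rose, with a median of -0.13; Eif3e and Eif3m, subunits of the scaffold that binds the small subunit, had log2 fold changes of -0.33 and -0.32, and the cap-binding protein Eif4e of -0.33. Of 11 elongation factors and other genes known for pyrimidine tract mRNAs, 6 fell and 1 rose (2 without ND library 1). In this list Hnrnpa1 (-0.40), Naca (-0.30) and Btf3 (-0.22), the last pair forming the complex that meets new chains at the tunnel, fell, and the exchange factor subunit Eef1d rose (0.16). Eef1a1, the most abundant of them and named after its value was seen, had 350068, 348958 and 338182 normalised counts on ND and 356036, 321493 and 318360 on CDAHFD, which overlap, and was not called (log2 fold change -0.06, limma adjusted p = 0.233).

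The mitochondrial ribosome, whose proteins come from another gene family, had 33 of 77 genes lower (42.9%), 2 higher and a median of -0.13. Without CDAHFD library 3, 21 were lower. Mrpl54 had the lowest value, with 487, 514 and 503 normalised counts on ND and 328, 349 and 335 on CDAHFD (log2 fold change -0.57, SE 0.08, limma adjusted p = 7.01e-07). Mrpl30, Mrps16 and Mrps26 had log2 fold changes of -0.39, -0.41 and -0.37.

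The genes of the mTORC1 pathway and LARP1 showed no common direction, with 4 of 19 lower (21.1%), 5 higher (26.3%) and a median of 0.03. Both shares are near those of all tested genes, and 2 were lower without ND library 2, ND library 3 or CDAHFD library 2. Sesn2, a stress-induced inhibitor that senses leucine, had 332, 289.8 and 279 normalised counts on ND and 608, 604 and 704 on CDAHFD (log2 fold change 1.09, SE 0.09, limma adjusted p = 1.41e-11). Deptor, which binds and inhibits mTOR, rose (log2 fold change 0.92), as did Eif4ebp1, the repressor of Eif4e that mTORC1 inactivates (0.64). Sesn1, a relative of Sesn2, fell (-0.39). The other called genes, named after their values were seen, were the inhibitor Ddit4 (0.24) and the mTORC1 scaffold Rptor (0.19), which rose, and the kinase Mtor (-0.13), its partner Mlst8 (-0.19) and its activator Rheb (-0.13), which fell. Larp1 itself, named after its value was seen, was not called (log2 fold change 0.05, limma adjusted p = 0.282). Macrophage, erythroid and plasma cell markers rose in the same libraries, by the amounts given above, and their part in the values of these lists was not tested.

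**Figure D5:**
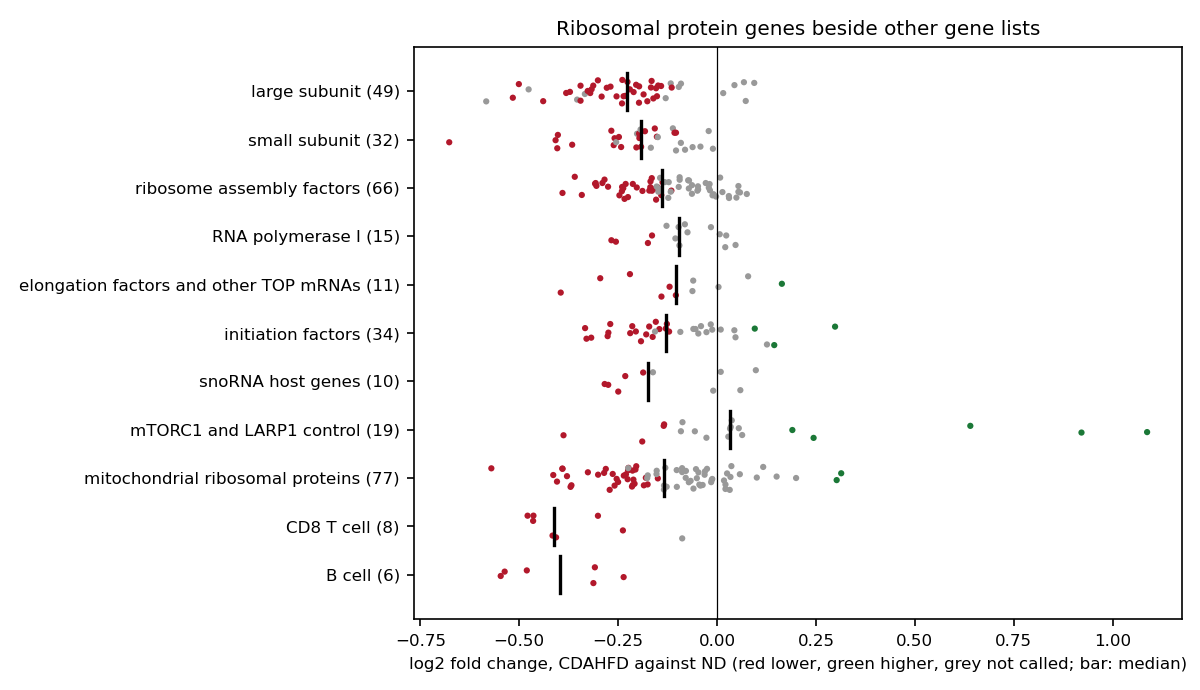
Log2 fold change of each gene (points, spread at random in height) in the large and small subunit, in 7 lists of genes that make, use or control ribosomes, and in the CD8 T cell and B cell markers, with the median of each list as a bar and the number of tested genes in brackets. The medians of the subunits are -0.23 and -0.19, those of the other lists lie between -0.17 and 0.03, and those of the CD8 T cell and B cell markers at -0.41 and -0.40.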

How the data were processed

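Per the labels' protocols, TRIzol served for the RNA and an mRNA kit or a whole-RNA kit for the libraries, without saying where each was used. The build was mm10, per the submitters' processing notes; neither aligner nor counter, strand setting or annotation is given in the sources used here. For each gene, the authors' deposited table holds a signal, its reads over a size factor of the library (normalised counts). Dividing each column by its smallest value above 0 gave whole reads for 100.0% of values (within 0.001). Columns spelled CDHFD were taken for CDAHFD, since no other group remained. Gene symbols were matched for 26147 of 26181 IDs.

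The test was limma 3.58.1 (trend, robust) in R 4.3.3 on log2(normalised count + 1), with diet as the only term, on the 15819 genes whose mean reached 10, with Benjamini-Hochberg adjustment over all of them and a threshold of 0.05. Fold changes are on this log2 scale, which understates those of low genes. The fit was also run on simulated counts with far fewer changed genes than were called in these data. That run does not show how the fit behaves with this many changes. Alternatives were edgeR 4.0.16 (quasi-likelihood) and DESeq2 1.42.0 on the recovered reads, the pseudocount, the filter, equal totals or TMM scaling, limma without trend, a replicate block, each library left out and, added after seeing the data, processed copies added to the gene they are named after. Libraries held 25314988 to 28067393 reads, and 1 normalised count stands for about 1 read.

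Levels per kb use the principal GENCODE M21 transcript. Members named are, per subunit, the 6 called with the lowest and the 4 with the highest log2 fold change, the 3 highest and 3 lowest per kb, and paralogues with their parents; of each pathway list, up to 4 called genes with the smallest adjusted p. A few genes are not reported here by name but stay in all counts, medians and fits. Members described for their role were added after their values were seen. The members and lists were chosen with earlier results of these data known. Same-numbered libraries of the diets did not deviate together (correlations of 0.04, -0.05 and 0.06) and no label names pairs, so the numbers were not taken as pairs. With so few libraries, these correlations cannot exclude a shared day or batch.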

Additional observations from a re-analysis of the deposited data

How the results depend on the processing

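The count of members called lower was 55 with either other pseudocount, 61 with equal totals and 57 with TMM. It was 39 without trend and robust estimation and 57 with copies added, and 0 were called higher under each of these. The shares of all tested genes under these settings are not given here, so the shifts cannot be read as particular to the members. Without trend and robust estimation, 67 genes of the pathway lists were called, against 115. Lower calls there went from 31 to 16 for assembly factors, 18 to 10 for initiation factors (higher calls 3 to 1), 6 to 2 for elongation factors, 5 to 2 for snoRNA hosts, 1 to 0 for chaperones, and 4 to 1 for both RNA polymerase I and mTORC1 genes. By DESeq2, 2 mTORC1 genes were lower and 2 elongation factors higher, and without a filter 2 elongation factors were higher. With the replicate block, 55 members were lower, and Rps27 (limma adjusted p = 0.000759) and Rps15a (0.0336) were called. No label says whether equal replicate numbers mark pairs. Leaving out each library in turn gave 51 to 66 members lower and 0 to 1 higher (large subunit 33 to 38 and 0 to 1, small subunit 16 to 28 lower), a median log2 fold change of -0.23 to -0.18, a change in the share of reads of -1.30 to -1.06 percentage points and 83 to 127 pathway genes called. In the same fits 2983 to 3697 of all tested genes were called lower. The member called higher was Rpl14 without CDAHFD library 2 and Rpl17 without CDAHFD library 3. Uncalled members near 0 changed sign, with ranges of log2 fold change of -0.044 to 0.16 for Rpl7a, -0.028 to 0.16 for Rpl24, -0.066 to 0.0045 for Rps6 and -0.031 to 0.014 for Rps9. With copies added, Rpl17 had a value of -0.058. The cause of these shifts was not tested. Rpl7 lost its call without a filter (adjusted p = 0.0618). Without trend and robust estimation, and with the same log2 fold changes, calls were lost by Rpl22 (0.0659), Rpl39 (0.129), Polr1e (0.051), Heatr3 (0.0711), Btf3 (0.0538) and Gas5 (0.0579), among other genes picked by the naming rule. Rpl24, Rpl36al and Rpl39l had under 100 normalised counts in each library, which limits their precision.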
